A study of Mus musculus with 4 samples.

Results

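The 35 genes described here are listed macrophage and myeloid genes, chosen by name from a table of 23930 amplicons, each named for 1 gene. All 35 were present, and they were followed in each of 4 libraries without a filter on level. The libraries come from primary progenitor cells of subcutaneous tissue of C57BL/6 mice whose Gnas gene is floxed. Gnas encodes the stimulatory alpha subunit of heterotrimeric G proteins, which raises cyclic AMP. In the control group (labelled wild type, 2 libraries) the floxed cells received Ad-GFP, an adenovirus carrying green fluorescent protein. In the mutant group (labelled Gnas-/-, 2 libraries) they received Ad-Cre, an adenovirus carrying the recombinase that removes floxed sequence. All cells were then kept for 7 days in osteogenic medium. The groups differ in the virus as well as in Gnas, and these cannot be told apart. The labels do not say whether libraries came from separate mice or cultures, and they name no sort for or against blood cells. The tissue was freed of fat, digested with collagenase and trypsin and filtered before culture. Values of 4 libraries are given below in the order control 1, control 2, mutant 1, mutant 2, unless libraries are named.

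Macrophages are phagocytes of the myeloid lineage. Their identity depends on the transcription factor PU.1, encoded by Spi1, and on signals through the receptor Csf1r. Tissue macrophages sit among the stromal cells of subcutaneous tissue and can be carried into primary cultures when that tissue is digested. They read their surroundings through Fc receptors and Trem2, which signal through the small adaptors Fcer1g and Tyrobp. Their states are usually described by markers of residence, lipid handling, antigen presentation and inflammation.

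The deposited values are in RPM, which scales each amplicon's reads to the library total. The steps between low values gave 13483518 to 18455811 reads per library. A value of 0 allows up to 3 reads, or 0.163, 0.222, 0.172 and 0.202 RPM. These floors, and all intervals given here, cover counting error only. All 8 measured stromal markers stood above 1 RPM in every library, led by Col1a1 at 5332 to 21009 RPM. Control 2 stood apart from control 1. Of 11638 tested genes, 507 differed by over 4-fold on the log2(RPM + 1) scale between the controls, against 11 between the mutants. Xist, the RNA of the inactive X chromosome, was at 165, 0, 395 and 419 RPM, and Ddx3y, on the Y chromosome, at 61.4, 124, 26.9 and 12.5 RPM, so the share of RNA from males and females differed between libraries. No row was named Gnas, and the labels could not be checked by that gene. RPM of an amplicon also depends on how well it amplifies, so levels were compared between libraries and not between genes.

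Myeloid RNA was concentrated in control 2. Of the 34 members with any read, 28 had their highest value there, against 25.1% of all amplicons with a read. In control 2, 24 members reached 1 RPM and 14 reached 10 RPM. The same counts were 12 and 3 for control 1, 7 and 2 for mutant 1, and 6 and 2 for mutant 2. Of the 24 members at 1 RPM in at least 1 control, 13 were higher in control 2 than in control 1 by at least 2 on the log2(RPM + 1) scale. The background for that difference was 2.92% of 11867 amplicons, and 2.17% for the opposite direction, which 1 member (Gpnmb) took. Since this sets 1 library against 1 other, it compares these libraries and carries no test.

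**Figure D1:**
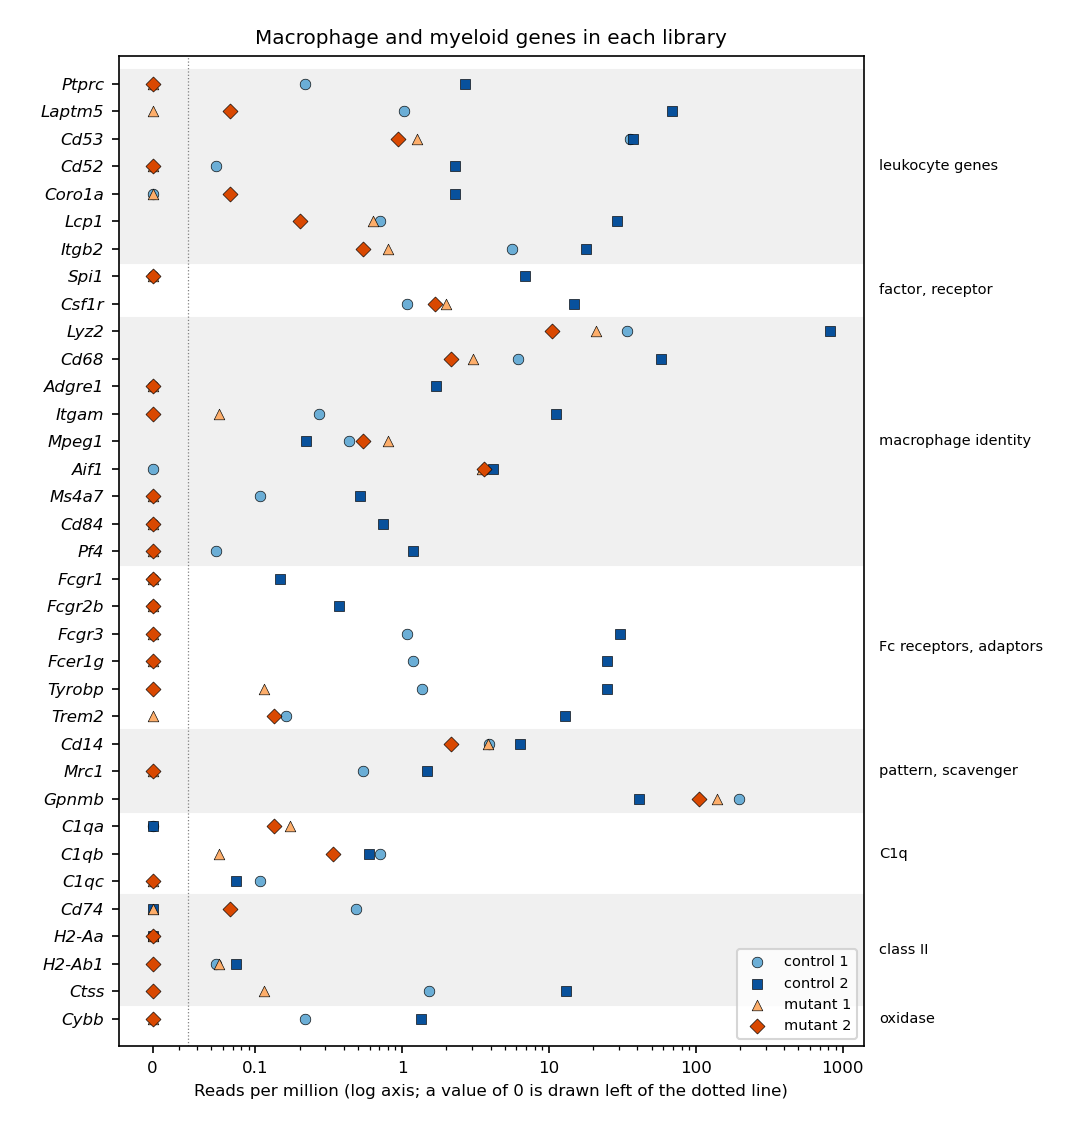
RPM of each of the 35 members (rows, grouped by role) in the 4 libraries on a log axis, with values of 0 drawn left of the dotted line; each point is 1 library. Control 2 (dark squares) holds the highest point for 28 members. No read in either mutant library was found for 15 members, of which 12 had over 3 reads over both controls.

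The leukocyte genes of the set encode proteins shared by blood cells. Laptm5, a lysosomal membrane protein of blood cells, stood at 1.03, 68.7, 0 and 0.067 RPM. Lcp1, the actin-bundling protein L-plastin, stood at 0.704, 29.2, 0.63 and 0.202 RPM. Both were high in control 2 alone. Control 2 exceeded control 1 by 66.7-fold for Laptm5 (95% exact counting interval 42.5 to 111) and by 41.5-fold for Lcp1 (24 to 78.6). Ptprc, the CD45 phosphatase of all white blood cells, stood at 0.217, 2.67, 0 and 0 RPM. Cd52, the gene of a short surface glycopeptide, and the actin regulator gene Coro1a each reached 2.3 RPM in control 2 and at most 0.067 RPM in any other library. Itgb2, the beta chain of the leukocyte integrins, stood at 5.58, 17.8, 0.802 and 0.539 RPM, so both controls lay above both mutants.

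Cd53, a tetraspanin of blood cells, did not follow the other leukocyte genes. The controls held 35.6 and 37.5 RPM, a ratio of 1.05 (95% exact counting interval 0.935 to 1.18), and the mutants 1.26 and 0.943 RPM. The controls were level with each other and far above both mutants. Its gene spans chr3:106759921-106790149 on the minus strand (GENCODE M21, GRCm38; positions are those of genes, and the place of each amplicon is not given in the sources used here).

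Spi1, the gene of PU.1, was read in control 2 alone, with 6.82 RPM from 92 reads and no read in the other libraries. This is at least 42-fold above control 1 when control 1 is set at 3 reads. Csf1r, the receptor for the macrophage growth factors, stood at 1.08, 14.9, 2.01 and 1.68 RPM. Control 1 was thus the lowest of the 4 libraries for Csf1r, and the groups overlapped. Its main ligand gene Csf1 was high everywhere, at 2514, 3295, 2647 and 2055 RPM, and did not pass the test between groups (limma, adjusted p = 0.691).

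The promoters of members bear on Spi1, since PU.1 binds the purine-rich PU box. The letters GAGGAA, searched on both strands in the 250 bases before the start site, were found in 14 of the 25 members with an entry in the RefSeq promoter table (GRCm38.p6). Of all 27025 genes with an entry, 23.1% held them in a window of the same length. A match describes the letters and does not show binding. Sequences of 4 members are written here 5′ to 3′ on the gene's strand in lower case, with matches to GAGGAA or its reverse complement in capitals. Laptm5 and Trem2 have the highest ratios of control 2 to control 1 among members read in both controls. Cd53 has a match but was level between the controls, and Gpnmb has no match and was lowest in control 2. Lyz2, Lcp1 and Fcer1g also have no match, with ratios of control 2 to control 1 of 24.3, 41.5 and 20.8. Itgam and Fcgr3 have a match, with ratios of 41.3 and 27.9, while C1qb and C1qc have a match and were near 0 in all libraries. Whether a match goes with the ratio was not tested.
Laptm5, chr4:130913066-130913315, plus strand: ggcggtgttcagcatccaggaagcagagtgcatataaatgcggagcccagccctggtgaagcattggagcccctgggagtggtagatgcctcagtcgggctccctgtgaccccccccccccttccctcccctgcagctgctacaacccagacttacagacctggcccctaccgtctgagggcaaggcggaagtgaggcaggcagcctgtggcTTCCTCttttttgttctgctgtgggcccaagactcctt
Trem2, chr17:48346151-48346400, plus strand: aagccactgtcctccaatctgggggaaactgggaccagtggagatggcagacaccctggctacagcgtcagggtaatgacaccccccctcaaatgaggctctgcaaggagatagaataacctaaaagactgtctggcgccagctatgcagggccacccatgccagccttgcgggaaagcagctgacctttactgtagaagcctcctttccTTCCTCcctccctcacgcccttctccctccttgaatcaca
Cd53, chr3:106790150-106790399, minus strand: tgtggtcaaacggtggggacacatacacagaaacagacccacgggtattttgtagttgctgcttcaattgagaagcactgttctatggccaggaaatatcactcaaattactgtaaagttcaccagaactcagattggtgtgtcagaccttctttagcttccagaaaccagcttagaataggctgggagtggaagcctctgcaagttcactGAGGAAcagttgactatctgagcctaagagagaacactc
Gpnmb, chr6:49036268-49036517, plus strand: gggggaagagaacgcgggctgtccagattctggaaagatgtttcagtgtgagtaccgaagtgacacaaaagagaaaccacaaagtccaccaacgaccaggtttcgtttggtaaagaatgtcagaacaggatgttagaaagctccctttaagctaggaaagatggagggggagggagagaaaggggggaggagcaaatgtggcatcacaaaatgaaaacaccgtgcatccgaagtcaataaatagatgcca

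In Laptm5, Trem2 and Cd53 the match begins 38, 40 and 39 bases before the RefSeq start site. In Laptm5 and Trem2 GAGGAA is on the other strand, and in Cd53 it is on the strand printed. By the RefSeq starts, Cd53 and Laptm5 thus hold the letters at nearly the same distance, while their ratios of control 2 to control 1 were 1.05 and 66.7. The GENCODE M21 start of Laptm5, at chr4:130913125, lies within its printed window, and the match lies after that start.

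Among macrophage identity genes, control 2 was high for most. Lyz2, the gene of lysozyme M, a bacterial wall-degrading enzyme of myeloid cells, stood at 33.9, 822, 20.8 and 10.4 RPM. Control 2 was 24.3-fold above control 1 (95% exact counting interval 22.4 to 26.3). Reads of Lyz2 can be shared with its close paralog Lyz1, which never exceeded 0.371 RPM. Cd68, a lysosomal glycoprotein of macrophages, stood at 6.12, 57.7, 3.04 and 2.16 RPM. For both genes every library had reads, control 2 was highest and the mutants were lowest.

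Itgam, the alpha chain of the complement receptor CR3, stood at 0.271, 11.2, 0.057 and 0 RPM. Adgre1, the gene of the F4/80 antigen that defines mouse macrophages, had 23 reads in control 2 (1.71 RPM) and none elsewhere. The chemokine gene Pf4 reached 1.19 RPM, the SLAM-family receptor gene Cd84 0.742 and the membrane protein gene Ms4a7 0.519 in control 2, with no read of these 3 in either mutant. Control 2 was thus the library that held the defining markers, at low levels for several of them.

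A pair of identity genes broke this order. Aif1, the calcium-binding protein Iba1, stood at 0, 4.15, 3.49 and 3.64 RPM, with control 1 as the library without a read. The mutants held Aif1 at nearly the level of control 2, although both had no read of Ptprc, Spi1 or Adgre1. Mpeg1, a pore-forming protein of phagocytes, stood at 0.433, 0.222, 0.802 and 0.539 RPM, and control 2 was the lowest of the 4 with 3 reads.

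The Fc receptor and adaptor genes were nearly unread in the mutants. Fcgr3, a low-affinity receptor for IgG, stood at 1.08, 30.3, 0 and 0 RPM. Its partner Fcer1g, the gamma chain that carries the signal, stood at 1.19, 24.8, 0 and 0 RPM. Tyrobp, the adaptor DAP12, stood at 1.35, 24.9, 0.115 and 0 RPM. In each case both controls lay above both mutants. Reads of Fcgr3 can be shared with its paralog Fcgr4, which stood at 1.25, 1.78, 0.115 and 0.067 RPM. Control 1 held 20 to 25 reads of each of Fcgr3, Fcer1g and Tyrobp, and control 2 held 334 to 408.

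Within this group the ratios of control 2 to control 1 lay close together. They were 27.9 for Fcgr3 (95% exact counting interval 17.8 to 46.2), 20.8 for Fcer1g (13.5 to 33.6) and 18.4 for Tyrobp (12.2 to 28.8). The intervals overlap each other and, for these 3 genes, that of Lyz2. Trem2, a lipid-sensing receptor that signals through Tyrobp, had the highest ratio among members read in both controls, 79.4 (26.7 to 389), from 3 and 174 reads. Its levels were 0.163, 12.9, 0 and 0.135 RPM. Fcgr1 and Fcgr2b, the high-affinity and the inhibitory receptor, stayed at 2 and 5 reads in control 2 and had none in the other libraries.

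**Figure D2:**
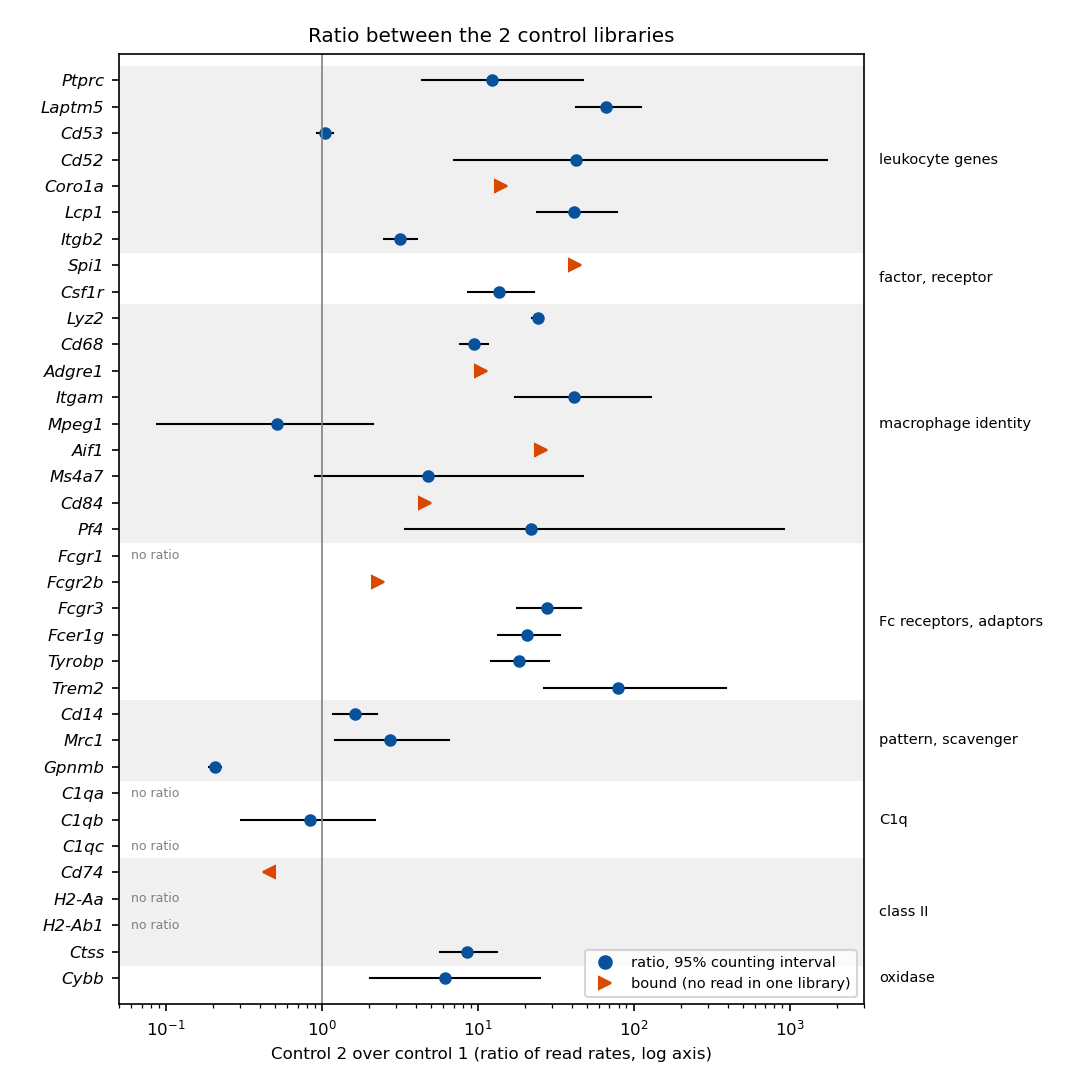
Ratio of control 2 to control 1 for each member (rows, grouped by role) on a log axis, with 95% exact counting intervals; arrowheads are bounds where 1 of these libraries had no read, and 5 members have no ratio because both libraries were at or under 3 reads. Of 23 ratios, 18 lie above 1 with their interval, Gpnmb at 0.208 lies below, and Cd53, Mpeg1, Ms4a7 and C1qb have intervals that hold 1. The share of all amplicons with an interval above 1 was not counted.

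Of the 3 pattern and scavenger receptors, Cd14 and Mrc1 were highest in control 2 and Gpnmb was lowest there. Cd14, the lipopolysaccharide co-receptor, stood at 3.9, 6.38, 3.84 and 2.16 RPM, a narrow range. The mannose receptor gene Mrc1 stood at 0.542, 1.48, 0 and 0 RPM. Gpnmb, a lysosomal glycoprotein also made by cells other than macrophages, ran the other way: it stood at 198, 41.1, 139 and 106 RPM. Control 2 was the lowest library for Gpnmb, with control 1 4.81-fold above it.

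Genes of the C1q chains were near 0 in all libraries, control 2 included. C1qa had no read in either control and 3 and 2 reads in the mutants, C1qb stood between 0.057 and 0.704 RPM, and C1qc at or below 0.108 RPM. The genes for class II antigen presentation were likewise near 0. H2-Aa had no read anywhere, H2-Ab1 had at most 1 read in a library, and the invariant chain gene Cd74 had 9 reads in control 1, none in control 2 or mutant 1, and 1 in mutant 2. Ctss, a cathepsin that also processes the invariant chain, was the exception in this group, at 1.52, 13.1, 0.115 and 0 RPM. Cybb, the catalytic subunit of the phagocyte oxidase, stood at 0.217, 1.34, 0 and 0 RPM.

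Other genes of the myeloid signalling pathway were read from a list of 30 that holds no member. Of these, 25 reached 1 RPM in control 2, 9 did so in control 1, and 10 and 11 in the mutants. Of the 30, 25 were highest in control 2, against 25.1% of all amplicons with a read. None of the 12 that could be tested between groups passed (limma on log2(RPM + 1), threshold 0.05 after Benjamini-Hochberg adjustment over all genes), and their median log2 fold change was -0.33. The 4 with the highest mean level, Arhgdib, Runx1, Sirpa and Cyba, were read in all libraries and differed by at most 2.1-fold between the controls. Irf8, a transcription factor of the myeloid lineage, stood at 22.2 RPM in control 2 and 0 in the other 3 libraries. Ncf1, a subunit of the phagocyte oxidase, stood at 13.2 RPM in control 2 and 0 elsewhere. Irf8 and Ncf1 were named after their values were seen.

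Lists of markers for macrophage states were read beside the members. Control 2 was the highest library for 4 of 12 genes of tissue-resident and 5 of 13 of lipid-associated macrophages. It was so for 10 of 13 of inflammatory and 1 of 9 of alternatively activated macrophages. Of all amplicons with a read, 25.1% were highest there. Of the 10 inflammatory genes, Il1b, Il1a, Tnf, Cxcl2, Cxcl3, Ccl4 and Cd86, named after their values were seen, had only 1 to 6 reads in control 2. In the same order of lists, control 2 exceeded control 1 by at least 2 on the log2(RPM + 1) scale for 4, 2, 1 and 1 genes. The background for that difference was 2.92% of amplicons at 1 RPM in a control. Stab1, a scavenger receptor, stood at 2.82, 24.5, 1.09 and 0.876 RPM. F13a1 (1.14, 15.8, 0.115 and 0.135 RPM), Siglec1 (0.596, 12, 0 and 0.067 RPM) and Folr2 (0.596, 7.86, 0 and 0.269 RPM), named after their values were seen, had the same order of controls. Cd163, Timd4 and Vsig4 had no read in any library. Gas6 and Maf were lower in control 2 than in every other library, with Gas6 at 546, 203, 1962 and 2220 RPM. Cbr2, a carbonyl reductase gene, stood at 0, 0, 6.07 and 11.7 RPM and rose in the mutants (limma adjusted p = 0.0368), having qualified for the test through the mutants alone. Set at 3 reads over the group, the controls held at most 0.0108 of the mutants' level.

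In the list of lipid-associated macrophages, Spp1, or osteopontin, which bone-forming cells also make, stood at 906, 17344, 312 and 216 RPM. Its ratio of 19.1 between the controls lay near those of Tyrobp and Fcer1g, and also near those of the endothelial genes Cdh5 (19.0) and Pecam1 (17.4). Which cells made Spp1 was not tested. The lysosomal protease genes Ctsd and Ctsb were abundant in all libraries and lower in control 2 than in control 1 (3971 against 6859 RPM for Ctsd), and Cd63 stood at 2793, 2943, 2492 and 1991 RPM. None of the 12 tested genes of this list passed between groups (limma).

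Markers within the inflammatory and the alternatively activated list differed in direction between the controls. In the inflammatory list, the costimulatory gene Cd80 stood at 75.7, 67, 41.5 and 19.5 RPM and the arginine transporter gene Slc7a2 at 18.4, 12.2, 33 and 25.3 RPM, both lower in control 2 than in control 1. Nos2, the inducible nitric oxide synthase, stood at 19.1 RPM in control 2, 0.067 in mutant 2 and 0 in the other libraries, at least 118-fold above control 1 when that is set at 3 reads. Ccl3 stood at 0.867, 5.79, 0.115 and 0.471 RPM. The cytokine genes Il1b and Tnf, named after their values were seen, stayed at or below 0.297 RPM in every library. In the alternatively activated list, the interleukin-4 receptor gene Il4ra stood at 1163, 928, 535 and 442 RPM, and Ccl17 and Pdcd1lg2 never exceeded 0.808 RPM. Arg1, which encodes arginase and competes for the substrate of Nos2, stood at 3.47, 20.8, 0.172 and 0.202 RPM, and did not pass between groups (limma, adjusted p = 0.141). Mgl2, Clec10a and Ccl22 had no read in any library. Among 7 further genes of the class II pathway, the peptide-loading genes H2-DMb1 and H2-DMa stood at 23.1, 9.94, 8.31 and 7.21 RPM and at 1.95, 2.37, 6.07 and 7.48 RPM, while H2-Eb1 and the master regulator gene Ciita had no read in control 2. In the monocyte list, Plac8 stood at 1221, 1063, 455 and 342 RPM, Ace at 91.7, 28.5, 129 and 133 RPM, and Nr4a1 at 8.45, 39.7, 11 and 24.4 RPM. Ccr2, the chemokine receptor of blood monocytes, named after its values were seen, had 1 read in control 1 and none elsewhere. No state was assigned.

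Markers of other cell types were read in the same way. Genes of neutrophils, mast cells, T and NK cells and B cells summed to at most 1.56 RPM per list in any library, and those of erythroid cells to at most 0.108. Among 8 dendritic cell genes, Flt3 and Xcr1 had no read, Zbtb46 stood at 3.52, 6.6, 5.9 and 5.73 RPM, and Itgax, which macrophages also express, stood at 5.34 RPM in control 2 and 0 elsewhere. Osteoclast genes were mixed: Ctsk stood at 277, 64.5, 61.3 and 37.7 RPM, Nfatc1 at 41, 34.6, 51.3 and 42.6 RPM, Itgb3 at 15.8, 42.5, 5.67 and 8.49 RPM and Acp5 at 20, 20.2, 14.3 and 13.2 RPM. Named after their values were seen, Atp6v0d2 stood at 21.6, 6.75, 0.115 and 1.08 RPM and Mmp9 at 0, 4.45, 0.573 and 1.35 RPM, while Dcstamp had 1 read and Calcr none. Endothelial markers differed in direction between the controls. Control 2 was the highest library for 4 of these 7 genes, against 25.1% of all amplicons with a read. It exceeded control 1 by at least 2 on the log2(RPM + 1) scale for 3 of them. The sum of the 7 genes stood at 9.97, 85.6, 18.3 and 36.6 RPM. Emcn stood at 0.813, 31.3, 3.72 and 8.35 RPM and Cdh5 at 1.25, 23.7, 5.9 and 12.1 RPM. Pecam1 stood at 1.41, 24.5, 1.83 and 1.48 RPM and Tek at 4.01, 4.38, 5.61 and 12.2 RPM, while Tie1 had no read in any library and Kdr, named after its values were seen, was at 0.89 RPM in control 2. The part of endothelial RNA in the results on the members was not tested.

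**Figure D3:**
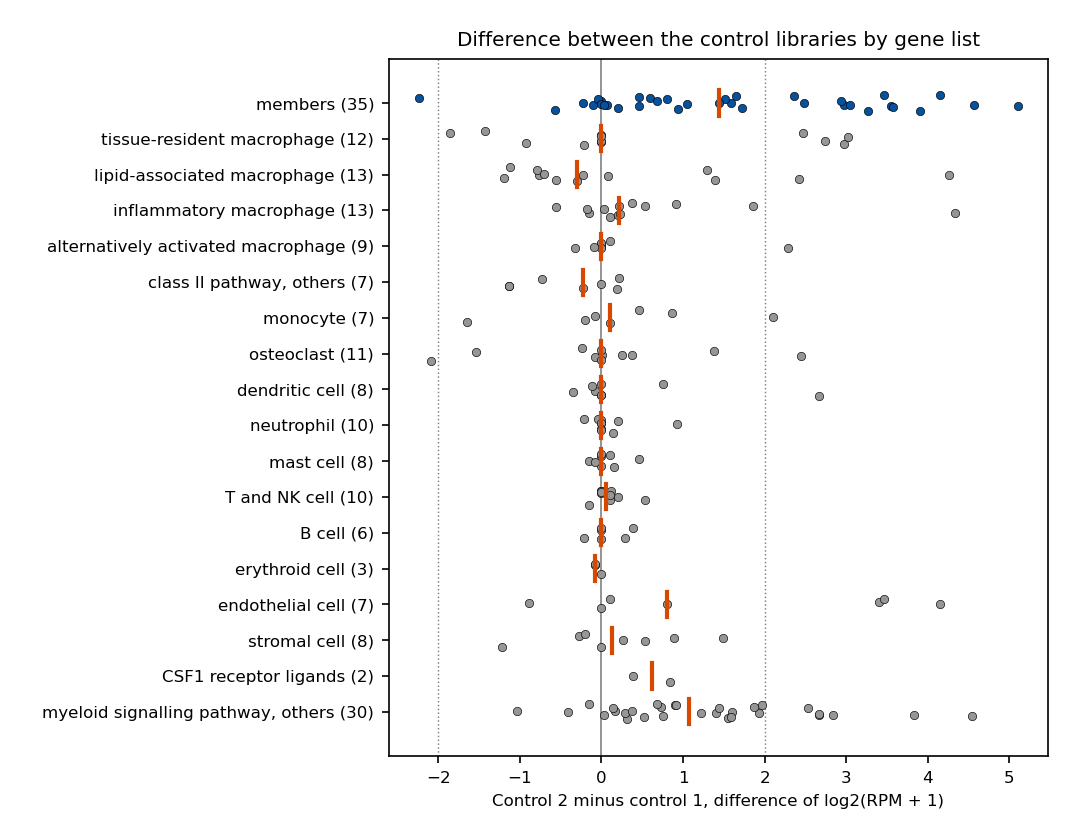
Difference of control 2 minus control 1 in log2(RPM + 1) for each gene (points) of the members and of the other lists, with the number of genes in brackets; orange bars are list medians and dotted lines mark a difference of 2. Beyond 2 to the right lie 13 of 35 members, 6 of 30 other myeloid signalling genes, and 4 of 12, 2 of 13, 1 of 13 and 1 of 9 genes of the state lists from top to bottom. Of all amplicons at 1 RPM in a control, 2.92% differ so.

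The mutants were then set against the controls, the contrast of the study. Summed over all 35 members, the level was 294, 1239, 176 and 129 RPM (766.5 ± 668 against 152 ± 33.1 RPM, mean ± SD, n = 2 libraries per group). Both controls lay above both mutants, and an exact permutation test gave p = 0.333 (two-sided), the smallest that 2 against 2 libraries allow. Gpnmb made up 67.2%, 3.32%, 78.8% and 82.1% of that sum in the order above, and Lyz2 66.3% of it in control 2. Without Gpnmb the sums were 96.4, 1198, 37.3 and 23.1 RPM, and the ratio of control to mutant means went from 5.03 to 21.4. In bulk RNA, fewer myeloid cells and less myeloid RNA per cell cannot be told apart.

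Of the 34 members with a read, 21 had both controls above both mutants, against 16.8% of all amplicons with a read. In 2 members, Mpeg1 and C1qa, both mutants lay above both controls, against 23.6%. In the mutants, 15 members had no read in either library, and 23 had at most 3 reads over both, among them Ptprc, Spi1, Adgre1, Fcgr3, Fcer1g and Tyrobp. Of the 15, 12 had over 3 reads over both controls, while H2-Aa, Fcgr1 and C1qc were near 0 there too. Members with a read numbered 26, 32, 16 and 16 of 35 by library, against 15989, 15419, 15600 and 16131 of all 23930 amplicons. The share of amplicons unread in both mutants was not counted. What remained in the mutants was Gpnmb, Lyz2, Aif1, Cd14, Cd68, Csf1r and, in mutant 1 only, Cd53 at 1 RPM or more.

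Control 1 taken alone also lay above the mutants for many members. Control 1 exceeded both mutants for 23 members, against 35.2% of all amplicons with a read, and control 2 did so for 30, against 32.9%. For 10 members the ratio of control 1 to the pooled mutants lay above 1 with its counting interval. Among them were Lyz2 at 2.11 (95% exact counting interval 1.87 to 2.37), Cd68 at 2.33 (1.74 to 3.12) and Itgb2 at 8.2 (5.13 to 13.6). Gpnmb, also made by other cells, was another, at 1.6 (1.53 to 1.67). The share of all amplicons with such an interval was not counted. Of 11638 tested genes, 545 differed by over 4-fold on the log2(RPM + 1) scale between control 1 and mutant 1, and 655 between control 1 and mutant 2. Fcer1g and Fcgr3 were at least 12.8-fold and 11.7-fold higher in control 1, with the mutants set at 3 reads over the group. Csf1r went the other way, at 0.584 (0.333 to 0.982), and so did Aif1, at most 0.0457 with control 1 set at 3 reads. For Mpeg1 and C1qa, both near 0, control 1 also lay below both mutants. Those intervals hold counting error and not the spread between cultures.

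A test with limma on log2(RPM + 1) took genes that reached 1 RPM in 2 or more libraries, and 13 members qualified. Of these, 1 fell (Cd53), 0 rose and 12 did not pass. Over all 11638 tested genes, 0.576% were called lower in the mutants and 1.73% higher. The median log2 fold change was -2.74 over the 13 tested members and 0.08 over all tested genes. Of the 13, 6 qualified only through both controls, so their direction was fixed by the filter. Over the 34 members with a read and no filter, the median was -0.86, against 0.03 over all amplicons with a read.

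Control libraries averaged 36.5 ± 1.31 RPM of Cd53 and mutant libraries 1.1 ± 0.224 RPM (SD, n = 2), a log2 fold change of -4.16 (SE 0.31, limma adjusted p = 0.0176). On the log2(RPM + 1) scale a fold change understates that of low genes; the ratio of pooled reads was 32.7 (95% exact counting interval 23.4 to 46.9). Cd53 also passed with edgeR and DESeq2 on whole reads. With either mutant left out limma called no gene (689 and 670 genes at an unadjusted p under 0.05), and Cd53 had adjusted p = 0.483 without mutant 1 and 0.53 without mutant 2.

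The other tested members did not pass. Itgb2 was nearest, at 11.7 ± 8.64 against 0.67 ± 0.186 RPM and a log2 fold change of -2.74 (SE 0.57, limma adjusted p = 0.0951). Lyz2 stood at 428 ± 557 against 15.6 ± 7.36 RPM (log2 fold change -3.42, SE 1.46, limma adjusted p = 0.31). Its SD in the controls was larger than the mean. Tyrobp (log2 fold change -2.89, limma adjusted p = 0.276), Fcer1g (-2.91, 0.281), Fcgr3 (-3.01, 0.3), Laptm5 (-3.52, 0.34), Ctss (-2.49, 0.225) and Cd68 (-2.52, 0.281) were farther from the threshold. For Itgb2, Tyrobp, Fcer1g, Fcgr3, Laptm5 and Ctss, which qualified only through both controls, the filter fixed that both controls lay above both mutants. The control libraries of Tyrobp, Fcer1g, Fcgr3, Laptm5, Ctss and Cd68 differed from each other by 8.6-fold to 66.7-fold.

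For Csf1r, Gpnmb and Aif1 the direction depended on which control was used. Csf1r had a log2 fold change of -1.02 (limma adjusted p = 0.631), which was -2.49 without control 1 and 0.45 without control 2. Gpnmb had 0.42 (limma adjusted p = 0.807), which was 1.54 without control 1 and -0.70 without control 2. Aif1 had 1.01 (limma adjusted p = 0.568), which was -0.17 without control 1 and 2.19 without control 2. With control 1 left out, Lyz2, Cd68, Csf1r and Cd53 were called lower and Gpnmb higher (limma, 1 control against 2 mutants). In such a fit the lone control is assumed to vary as the mutants do, so these calls hold no spread between controls, where 507 genes differed by over 4-fold. Under the same assumption, with control 2 left out, Cd53 was called lower and Aif1 higher, and Lyz2 had a log2 fold change of -1.14.

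**Figure D4:**
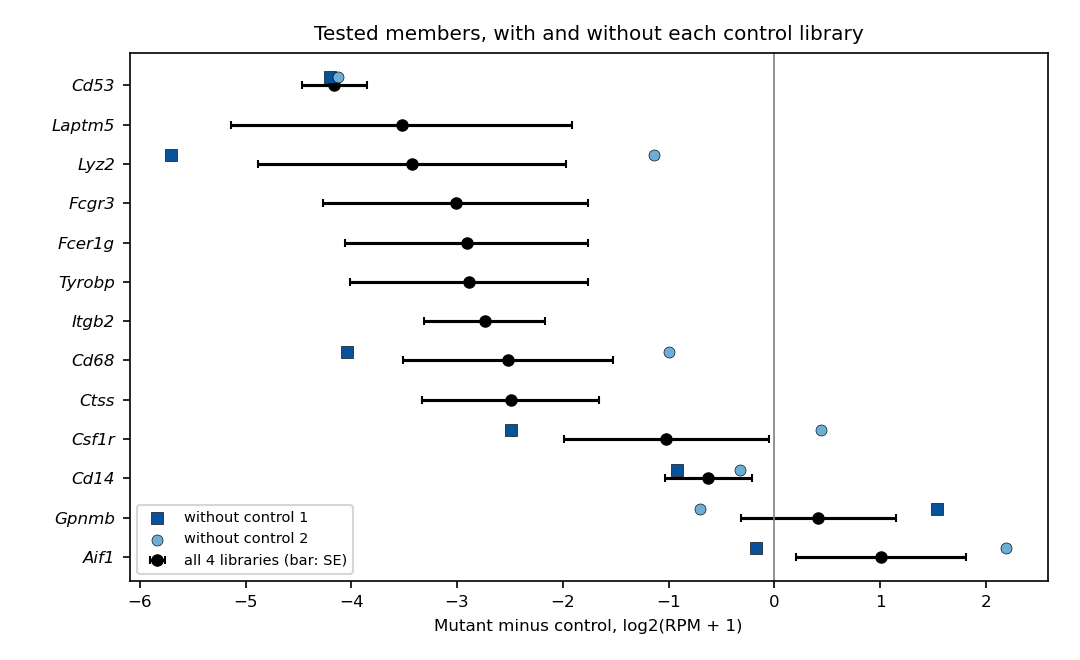
Log2 fold change (mutant minus control, log2(RPM + 1)) of the 13 tested members with all 4 libraries (black, bars show SE), without control 1 (dark squares) and without control 2 (light circles); 6 members drop out of the test when a control is left out. Cd53 stays between -4.20 and -4.13 in these 3 fits, while Csf1r, Gpnmb and Aif1 lie on both sides of 0.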

How the data were processed

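RNA was measured in 4 libraries with the Ion AmpliSeq mouse transcriptome panel, which amplifies 1 short target per gene, per the labels' protocols. The authors deposited RPM values (reads of an amplicon scaled to a fixed library size). For the aligner, counter, build and filters: not given in the sources used here. Symbols came from amplicon names, since 27 gene names had turned into dates. Steps between low values gave the reads: 100% of non-zero values were whole within 0.01 read.

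The members and lists were chosen with earlier results of these data known. Every member is described. The rule for other lists names up to 4 genes with the highest mean RPM and any past the threshold; lists near 0 are given by their sums. Genes outside that rule are marked in the text or given only as having no read. P-values measure the spread between these libraries, which may be technical.

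The test was limma 3.58.1 in R 4.3.3 (eBayes with a trend), two-sided, Benjamini-Hochberg adjusted, on log2(RPM + 1), checked on simulated data. Other settings tried were pseudocounts of 0.5 and 5, filters at 0 and 5 RPM, TMM or median-of-ratios scaling, no trend, a replicate block, edgeR 4.0.16 and DESeq2 1.42.0 on whole reads, and each library left out. Ratios of reads carry exact 95% intervals. Python 3.11.15 made counts and figures.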

Additional observations from a re-analysis of the deposited data

How the results depend on the processing

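Main counts were 268 genes and 1 member (Cd53) past the threshold. Genes numbered 74 with no filter on low values, 424 with the replicate block, 93 with edgeR and 1091 with DESeq2, and 0 to 2556 when a library was left out (2556 without control 1, 2038 without control 2). Limma called no gene without mutant 1 (689 at an unadjusted p under 0.05) or without mutant 2 (670). Members past the threshold numbered 8 with DESeq2 (Cd53, Cd68, Ctss, Fcer1g, Fcgr3, Itgb2, Laptm5 and Tyrobp, all lower), 1 with edgeR, and 0 to 5 with a library left out. Of the 8 members with DESeq2, 6 (Ctss, Fcer1g, Fcgr3, Itgb2, Laptm5 and Tyrobp) qualified only through both controls, so the filter fixed their direction. Over all 11638 tested genes, DESeq2 called 493 lower and 598 higher. The cause of the differences between settings was not tested.

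The share of called genes that were higher was 75% in the main fit and 54.8% with DESeq2. Median-of-ratios scaling moved the median of all genes from 0.08 to -0.0016.

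The summed level stayed higher in the controls in all 8 alternatives, by 1.93-fold without control 2 and 8.13-fold without control 1. It was 2.48-fold without Lyz2 and 21.4-fold without Gpnmb, the latter chosen after seeing the data. Reversed directions were Csf1r at 0.45 and Gpnmb at -0.70 without control 2, Aif1 at -0.17 without control 1, and Gpnmb at -0.0052 with edgeR and -0.012 with DESeq2. With the other control left out Csf1r was -2.49, Gpnmb 1.54 and Aif1 2.19.

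Replicate numbers are shared between groups, but the labels tie them to no mouse or culture. The differences between libraries 1 and 2 correlated across genes at r = 0.164 between the groups. With the replicate block as a pairing, 424 genes and 1 member were called. Depth limits members with few reads: a gene with no read may hold up to 0.163 to 0.222 RPM.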
